A study of Mus musculus with 18 samples.

Results

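The 10 genes H2-Aa, H2-Ab1, H2-Eb1, Cd74, Ciita, Cd40, Cd80, Cd86, Cd83 and Cd274 were followed by RNA-seq in cultured RAW264.7 macrophages and in livers of mice. They were taken by gene symbol because they carry antigen presentation on MHC class II and the co-stimulatory or co-inhibitory signals that go with it, and all 10 were among the 21441 genes listed in each of the 2 deposited expression tables. RAW264.7 cells are a mouse line with the properties of macrophages, LPS is the outer membrane component of Gram-negative bacteria that activates macrophages, and MIC-1 (moringa isothiocyanate-1) is an isothiocyanate from Moringa oleifera seeds. Each table held 3 control, 3 LPS and 3 LPS+MIC-1 libraries, 18 libraries in all. The question was how LPS changed these genes and whether the change differed when MIC-1 was also given.

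In the mouse experiment, wild type C57BL/6 males received vehicle (10% DMSO) or 80 mg/kg MIC-1 in that vehicle by gavage for 3 days. LPS-treated mice then received 10 mg/kg LPS by intraperitoneal injection, control mice received saline, and livers were taken 16 h after the injection. The ages of the mice are not given in the sources used here. The macrophage cultures were control, LPS-treated or treated with LPS and 10 µM MIC-1, and the LPS concentration and time for the sequenced cultures are not given in the sources used here. Labels of the cultures carry the strain and doses of the mice, and nothing says which cultures were grown separately, so the p-values measure the spread between libraries. There was no group with MIC-1 alone in either experiment.

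Values are FPKM (fragments per kilobase of transcript, relative to sequencing depth), which the authors computed and scaled between libraries, and libraries of a treatment are numbered in column order. Depth was estimated from the steps between low values at 13.5 to 17.3 M reads in macrophages and 3.54 to 14.9 M reads in liver, where control libraries 2 and 3 were the shallowest. One macrophage library went against its label. LPS library 2 correlated with control library 2 at r = 0.990 over log2 values, as closely as the pairs of libraries 1 and 3 within a treatment (0.986 to 0.991), and with LPS libraries 1 and 3 at 0.862 and 0.860. The study's own description of its macrophage samples counts fewer LPS libraries than the table holds and does not name the one left out. Macrophage results are therefore given with and without LPS library 2. In units of the variance expected from counting reads, libraries 1 and 3 of a macrophage treatment differed by 1.46 to 2.14. Library 2 of control or LPS+MIC-1 differed from them by 7.6 to 13.2. Without library 2 the LPS group is thus 2 libraries little apart beyond counting error, and small p-values there may reflect technical spread. In macrophages the FPKM values of LPS libraries 1 and 3 also summed to 1.14e+06 and 1.13e+06, against 557136 to 652486 in the other libraries. In liver, control 1 stood apart from controls 2 and 3 (r = 0.906 and 0.887, against 0.930 between those), and LPS liver 2 correlated more with LPS+MIC-1 liver 2 (0.947) than with LPS livers 1 and 3 (0.889 and 0.893). LPS+MIC-1 liver 2 in turn correlated at 0.935 and 0.932 with LPS+MIC-1 livers 1 and 3, against 0.979 between those. In units of counting variance LPS+MIC-1 livers 1 and 3 differed by 2.11, and liver 2 differed from them by 34.5 and 32.7. The RAW264.7 macrophage markers (7 genes, among them Lyz2, Csf1r and Cd14) summed to between 11100 and 13500 FPKM in every culture, and the hepatocyte markers (6 genes, among them Alb and Apoa1) to between 34600 and 81000 FPKM in every liver. Lyz2 made up most of the first sum, and single markers differed between groups. Csf1r was at 406 to 423 FPKM in control and at 109 and 108 in LPS libraries 1 and 3. Emr1 was at 37.2 to 42.3 in control and at 278 and 290 in LPS libraries 1 and 3.

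MHC class II molecules are heterodimers on the surface of professional antigen-presenting cells that show peptides from the endosomes to CD4+ T cells. H2-Aa and H2-Ab1 encode the alpha and beta chains of I-A, and H2-Eb1 encodes the beta chain of I-E, whose alpha chain gene is defective in C57BL/6 mice. Cd74 encodes the invariant chain, which escorts new class II molecules to the endosome, and Ciita encodes the transactivator that switches on the class II genes. Cd80 and Cd86 are the B7 ligands of CD28 on T cells, Cd40 receives the signal of the T cell's CD40 ligand, Cd83 stabilises class II and CD86 at the cell surface, and Cd274 encodes PD-L1, the ligand of the inhibitory receptor PD-1. In liver these genes are mainly products of Kupffer cells, dendritic cells, B cells and endothelium, a small share of the tissue.

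H2-Aa, H2-Ab1 and H2-Eb1 are neighbours on chromosome 17, Cd80, Cd86 and Ciita lie on chromosome 16, and Cd40, Cd83, Cd74 and Cd274 lie on chromosomes 2, 13, 18 and 19 of mm9. The annotated ends of H2-Aa and H2-Ab1, which run on opposite strands, overlap by 88 bases. RefSeq promoters (GRCm38.p6) were at hand for 4 of the 10 genes, H2-Aa, H2-Eb1, Cd80 and Cd274. Class II promoters carry an X box, bound by the RFX complex, ahead of a Y box, bound by NF-Y, and CIITA acts through the proteins bound there. In the 250 bases before the start, this arrangement was searched as GCAAC (from the X box) followed after 20 to 36 bases by ATTGG (the Y box), on both strands. It was found in H2-Aa and H2-Eb1 and not in Cd80 or Cd274, in 3 of 6 other class II chains with a promoter (H2-Eb2, H2-Oa and H2-Ob), and in 0.724% of all 32851 promoters. These stretches are shown because H2-Aa and H2-Eb1 gave the only calls in liver below, with the 2 boxes in capitals.
H2-Aa, chr17:34287824-34288073, minus strand: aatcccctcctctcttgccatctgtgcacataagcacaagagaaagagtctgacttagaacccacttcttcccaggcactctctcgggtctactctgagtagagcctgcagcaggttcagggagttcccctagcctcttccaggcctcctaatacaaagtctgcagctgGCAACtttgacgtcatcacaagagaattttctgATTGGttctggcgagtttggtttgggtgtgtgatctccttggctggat
H2-Eb1, chr17:34305617-34305866, plus strand: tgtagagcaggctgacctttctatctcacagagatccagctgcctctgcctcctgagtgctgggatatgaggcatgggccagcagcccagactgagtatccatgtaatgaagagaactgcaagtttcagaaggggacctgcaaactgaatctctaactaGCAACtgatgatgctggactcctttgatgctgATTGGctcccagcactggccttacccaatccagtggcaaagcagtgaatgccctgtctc
The module ran from base -81 to -44 before the start in H2-Aa, with 28 bases between the boxes, and from -91 to -55 in H2-Eb1, with 27 bases between them. Of the other motifs searched in the same window, GGGA and CC with 4 bases between them (a form of the NF-κB consensus) was found in H2-Aa and Cd80 and in 17.6% of all promoters. Neither GAAA and GAAA with 2 bases between them (an interferon response element, 2.98% of all promoters) nor TTC and GAA with 3 bases between them (a STAT site, 7.02%) was found in these 4 promoters. A match is a string of letters in a window and was not tied to binding here.

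In RAW264.7 macrophages, transcripts of the class II chains were low in every group, with at most 19.1 estimated reads in a library. Cd74 was abundant and the co-stimulatory genes were well above the limit of detection. H2-Aa was listed at 0 in 8 of 9 libraries and at 0.0544 FPKM in LPS+MIC-1 library 2, below the 0.235 FPKM that 3 reads would give there. Ciita was listed at 0 in all 9 libraries, where 3 reads would give between 0.0475 and 0.0822 FPKM. H2-Ab1 was at 0.121, 0.263 and 0.0832 FPKM in control libraries 1 to 3, at 1.12, 0.176 and 1.31 in LPS, and at 0.291, 0.292 and 0.577 in LPS+MIC-1, an estimated 1.92 to 19.1 reads per library. Every LPS+MIC-1 library lay above every control library, and LPS libraries 1 and 3 lay above all others. The former rested on 5.76 and 5.75 estimated reads in LPS+MIC-1 libraries 1 and 2 against 5.75 in control 2. Among genes with a mean above 1 FPKM, which do not include H2-Ab1, 31.4% were higher without overlap for LPS+MIC-1 against control. For H2-Ab1 the exact two-sided permutation test gave p = 0.2 for LPS against control and p = 0.1 for LPS+MIC-1 against control, and 0.1 is the smallest p that 3 against 3 libraries allow. H2-Eb1 peaked in LPS libraries 1 and 3, at 0.67 and 0.449 FPKM (6.84 and 4.89 reads), with no more than 0.0993 FPKM in the other 7 libraries (p = 0.2, exact permutation test, for LPS against control). RAW264.7 derives from a BALB/c mouse while the index is of C57BL/6, and class II chains are polymorphic, so reads of these chains may be missed; this was not tested.

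Cd74, the invariant chain, was the most abundant of the 10 genes. Control cultures gave 178, 285 and 172 FPKM, LPS cultures 760, 294 and 694, and LPS+MIC-1 cultures 416, 456 and 432 (212 ± 63.7, 583 ± 252 and 435 ± 20.2, mean ± SD, n = 3). The LPS libraries all lay above the controls, library 2 by the least, and the LPS+MIC-1 libraries lay between the controls and LPS libraries 1 and 3.

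Cd40, the receptor for CD40 ligand, showed the same order with a wider gap. Its FPKM values were 12.5, 15.7 and 11.9 in control, 92.3, 16.3 and 95.2 in LPS, and 27.6, 26.2 and 26.9 in LPS+MIC-1. No control or LPS+MIC-1 library came near LPS libraries 1 and 3, and LPS library 2 was within 1 FPKM of control library 2. Cd274, which encodes PD-L1, had the widest range. It was at 2.74, 6.37 and 3.16 FPKM in control, at 161, 5.51 and 161 in LPS, and at 55.9, 27.2 and 57.2 in LPS+MIC-1, so that library 2 was the lowest of the LPS+MIC-1 libraries as well.

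The B7 ligands and Cd83 were above every control in all LPS+MIC-1 libraries, of which library 2 was the lowest for each of the 3 genes. Cd80 was at 2.57, 5.75 and 2.44 FPKM in control, at 61.2, 5.17 and 62.0 in LPS, and at 44.8, 29.0 and 42.9 in LPS+MIC-1, each below LPS libraries 1 and 3. Cd86 was at 1.15, 2.05 and 0.878 FPKM in control, at 23.2, 2.58 and 20.9 in LPS, and at 23.3, 11.9 and 23.3 in LPS+MIC-1, where 2 of 3 libraries equalled or exceeded every LPS library. Cd83 was at 3.15, 3.53 and 1.92 FPKM in control, at 14.9, 2.64 and 16.5 in LPS, and at 15.3, 9.21 and 13.3 in LPS+MIC-1.

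**Figure D1:**
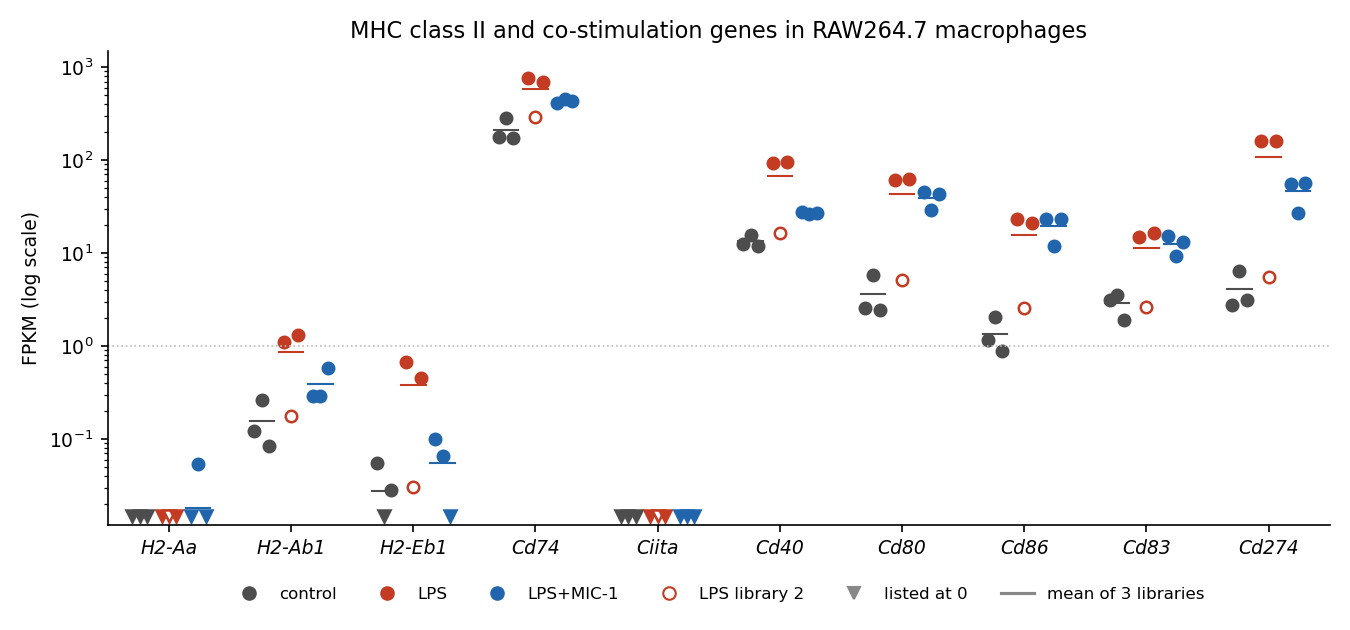
FPKM (log axis) of the 10 genes in RAW264.7 macrophages, 1 point per library (control, LPS and LPS+MIC-1, n = 3 each), with bars at group means, triangles at the bottom for values listed at 0 and a dotted line at 1 FPKM. LPS library 2 (open circles) lies with the controls, and Cd40 in LPS+MIC-1 (26.2 to 27.6 FPKM) lies below LPS libraries 1 and 3 (92.3 and 95.2) while Cd86 does not.

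Cd74, Cd40, Cd80, Cd86, Cd83 and Cd274 had a mean above 1 FPKM over the 9 libraries, and in each of the 3 groups alone, and were tested with limma together with all 9905 such genes. A gene was called in macrophages at an adjusted p (Benjamini-Hochberg over the tested genes) below 0.01 and an absolute Log2FC above 1, where Log2FC is the difference of mean log2(FPKM + 0.5) and understates the change of low genes. For LPS against control with all 9 libraries, 0 of the 6 genes and 0% of the 9905 were called. At an unadjusted p below 0.05 there were 6 of the 6 and 4928 of all genes, and the smallest adjusted p of any gene was 0.0777. Log2FC was 3.64 ± 1.16 (SE) for Cd274, 2.87 ± 0.861 for Cd80, 2.69 ± 0.738 for Cd86, 1.95 ± 0.595 for Cd40, 1.51 ± 0.603 for Cd83 and 1.38 ± 0.361 for Cd74. Groups did not overlap for 3 of the 6 (Cd74, Cd40 and Cd86, higher with LPS), a pattern that 16.1% of tested genes showed in that direction.

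Without LPS library 2, all 6 genes rose with LPS, where 16.3% of tested genes were called higher. The LPS group is then libraries 1 and 3 alone, which lay little beyond counting error apart, and the p-values carry that limit. Cd274 rose most, by a Log2FC of 5.22 ± 0.397 (limma, adjusted p = 1.32e-05), followed by Cd80 (4.02 ± 0.333, adjusted p = 1.99e-05) and Cd86 (3.65 ± 0.341, adjusted p = 3.69e-05). Cd40 rose by 2.78 ± 0.113 (adjusted p = 1.34e-06), Cd83 by 2.30 ± 0.261 (adjusted p = 1.05e-04) and Cd74 by 1.81 ± 0.202 (adjusted p = 9.37e-05). The median Log2FC of the 6 was 3.21, and that of all tested genes was -0.02. With the FPKM values rescaled to the same sum in each of these 8 libraries, which moved the median of all genes to -0.93, Cd74 was no longer called (Log2FC 0.82) and the other 5 were.

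Comparing LPS+MIC-1 with control, 0 of the 6 genes were called with all 9 libraries, where 3.27% of tested genes were called higher, and 5 of the 6 had an unadjusted p below 0.05. LPS+MIC-1 libraries lay above every control library for all 6 genes, as they did for 31.4% of tested genes. Without LPS library 2, which here enters only the estimate of spread, 5 of the 6 rose (background 7.55% higher). Log2FC was 3.41 ± 0.305 for Cd86 (limma, adjusted p = 6.27e-05), 3.37 ± 0.355 for Cd274, 3.34 ± 0.298 for Cd80, 1.96 ± 0.234 for Cd83 and 1.07 ± 0.181 for Cd74. Cd40 was just short of the fold limit at 0.99 ± 0.101 (adjusted p = 1.16e-04). Both rescalings of these 8 libraries ended the call of Cd74 (0.89 with the same sum and 0.98 with quantile normalization), and the latter called Cd40 (1.10). LPS against control and LPS+MIC-1 against control share their control libraries.

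Comparing LPS+MIC-1 with LPS in all 9 libraries, 0 of the 6 genes were called, where 1.81% of tested genes were called lower and 2.06% higher, and 0 of the 6 had an unadjusted p below 0.05. Without LPS library 2, Cd40 fell by 1.78 on the log2 scale (SE 0.113, adjusted p = 1.00e-05) and Cd274 fell by 1.85 (SE 0.397, adjusted p = 0.00407), 2 of 6 genes, where 12% of tested genes were called lower. Cd74 was at a Log2FC of -0.74 ± 0.202 (adjusted p = 0.0124), Cd80 at -0.68 ± 0.333 (adjusted p = 0.103), Cd83 at -0.33 ± 0.261 (adjusted p = 0.287) and Cd86 at -0.23 ± 0.341 (adjusted p = 0.561), and none of these 4 passed the test. These values depend on the scale of the libraries. Rescaled to the same sum without LPS library 2, which moved the median of all genes from 0.01 to 0.74, Log2FC was -0.99 for Cd40 (adjusted p = 4.09e-05), -1.05 for Cd274 (adjusted p = 0.0362) and 0.062 for Cd74, and 0 of the 6 were called. Cd80, Cd83 and Cd86 turned positive on that scale, at 0.11, 0.44 and 0.55, each below the shift of the median of all genes. With quantile normalization of these 8 libraries Cd40 alone was called (-1.49, adjusted p = 5.03e-05) and Cd274 was at -1.40 (adjusted p = 0.0197).

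**Figure D2:**
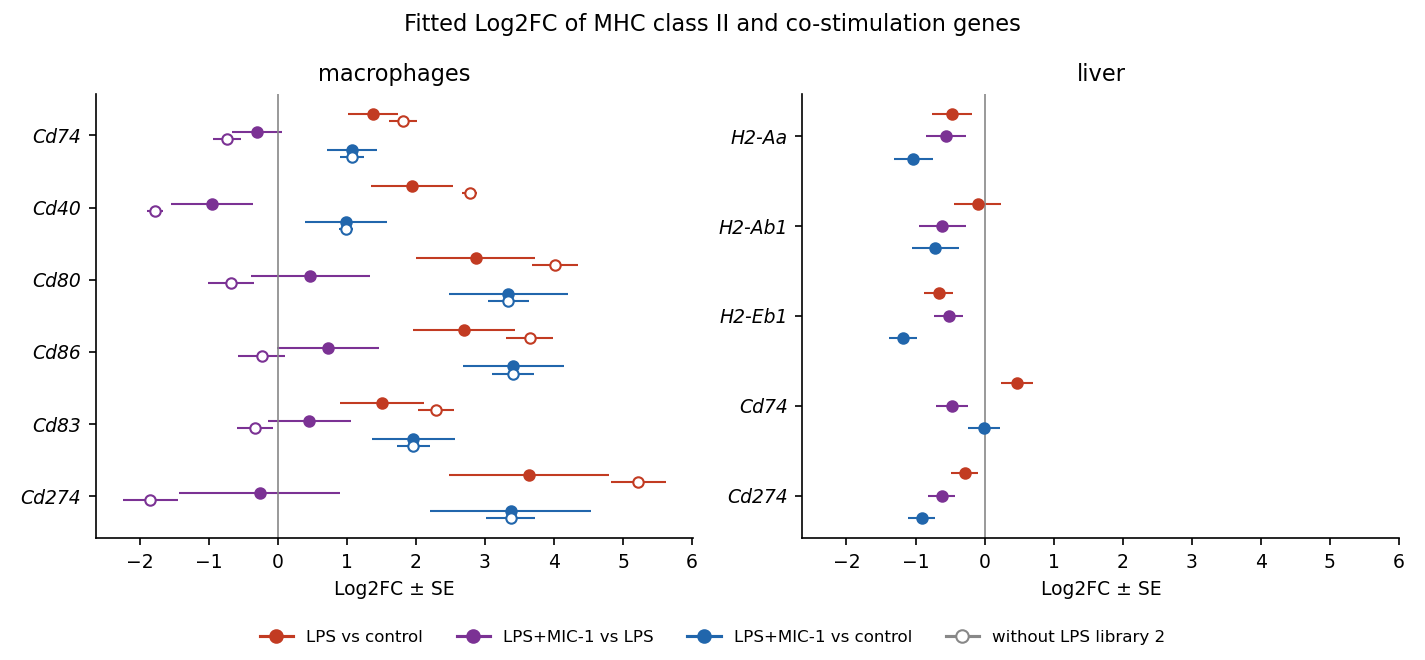
Log2FC ± SE from limma for the genes above the FPKM filter in macrophages (left) and liver (right), for LPS against control, LPS+MIC-1 against LPS and LPS+MIC-1 against control. Filled points use all 9 libraries of a table and open points leave out macrophage LPS library 2, with which Cd274 for LPS against control moves from 3.64 to 5.22.

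Ratios of these genes within a library do not depend on its scale, and were examined for all 15 pairs after the values had been seen, as a description. Between LPS+MIC-1 and LPS, 3 of the 15 ratios did not overlap with all libraries kept, and each had Cd40 on one side. The Cd86 to Cd40 ratio was 0.844, 0.454 and 0.866 with LPS+MIC-1, 0.251, 0.158 and 0.22 with LPS and between 0.0741 and 0.13 in the controls. The Cd80 to Cd40 ratio was 1.11 to 1.62 with LPS+MIC-1 and 0.317 to 0.663 with LPS, and the Cd83 to Cd40 ratio was 0.352 to 0.555 with LPS+MIC-1 and 0.161 to 0.173 with LPS. Cd40 was thus lower relative to Cd80, Cd86 and Cd83 in every culture given MIC-1 than in any culture without it. The ratio to Cd40 was higher without overlap for 9.49% of tested genes.

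**Figure D3:**
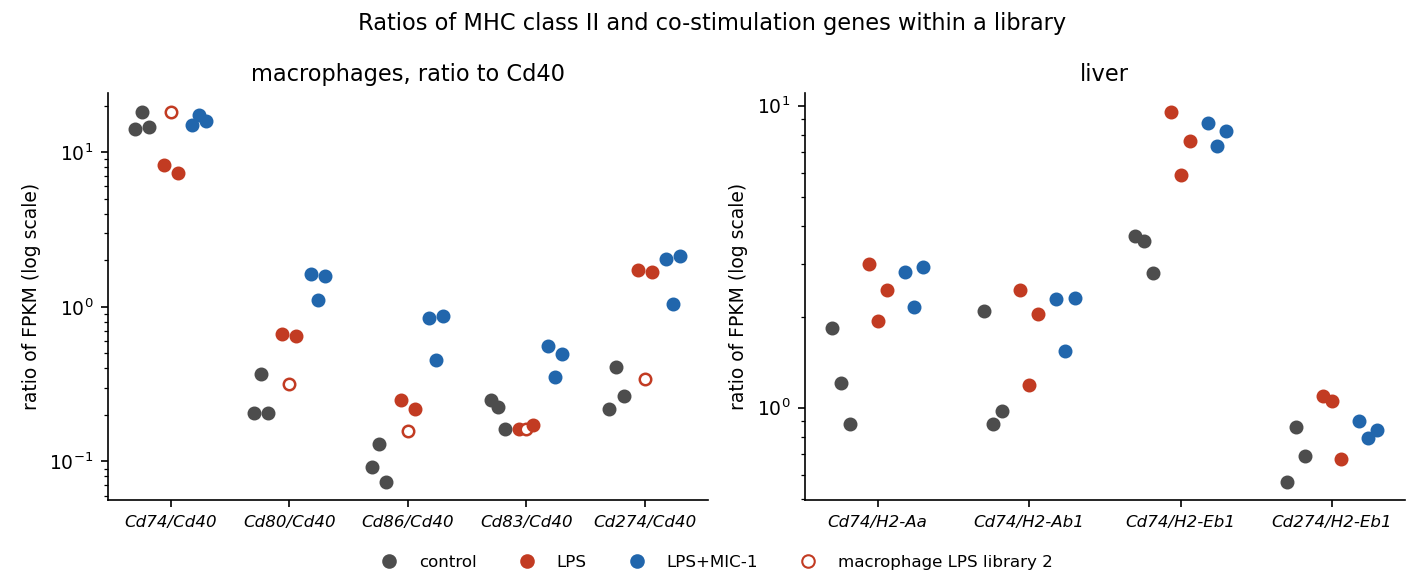
Ratios of FPKM between pairs of these genes within each library (log axes), 1 point per library, for 5 ratios to Cd40 in macrophages (left) and 4 ratios in liver (right). The Cd86 to Cd40 ratio is 0.454 to 0.866 with LPS+MIC-1 and at most 0.251 in the other cultures, and the liver Cd74 to H2-Eb1 ratio is 5.91 to 9.53 after LPS, 7.35 to 8.74 after LPS+MIC-1 and 2.79 to 3.70 in controls.

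Over the 9 macrophage libraries the log2 values of Cd80, Cd86 and Cd83 correlated pairwise at r = 0.98 to 0.992 and those of Cd40 with these 3 at 0.806 to 0.86, over libraries that share treatments. The genes outside the 10 whose pattern was most like the mean of Cd40, Cd80, Cd86, Cd83 and Cd274 were Mrpl45, Sykb, Znrf1, Lilrb4 and Vegfa (r = 0.997 to 0.998 over 9 libraries). Those most like Cd74 were Neu1, Rilpl2, Tmem206, Specc1 and Tnfaip3 (r = 0.991 to 0.996).

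Other genes of the class II pathway were called in both directions in macrophages. This list and those after it are given on the deposited scale alone. Without LPS library 2, rescaling to the same sum moved the median of all genes from -0.02 to -0.93 for LPS against control. For LPS+MIC-1 against LPS it moved from 0.01 to 0.74. Whether the calls of these lists hold on that scale was not tested. Of 23 listed genes (other class II chains, peptide exchange factors, subunits of the complex on the X and Y boxes, and endosomal proteases), 15 were tested. Without LPS library 2, 5 rose and 2 fell with LPS, with a median Log2FC of 0.34, where 16.3% of all tested genes were called higher and 17.9% lower. The largest rises were in cathepsins that process the invariant chain and antigens, Ctsl (3.28 ± 0.136), Ctsd (2.13 ± 0.0991) and Ctsb (1.80 ± 0.0824), while Nfyc and Rfx5, subunits of the NF-Y and RFX complexes, fell (-2.19 ± 0.237 and -1.36 ± 0.261). With LPS+MIC-1 relative to LPS, 6 fell and 1 rose (3 fell and 0 rose with all 9 libraries), with a median of -0.40, where 12% of all tested genes were called lower and 11.3% higher without LPS library 2. Cathepsin S (Ctss), which trims the invariant chain, stood at 340.5 ± 48.6 FPKM with LPS+MIC-1 (n = 3) against 1990 (library 1) and 1980 (library 3) with LPS, and fell by 2.55 on the log2 scale (adjusted p = 1.34e-05) without LPS library 2 and by 2.19 (adjusted p = 0.00361) with all 9. The processing genes Lgmn and Ifi30 also fell in both fits (-2.08 ± 0.296 and -1.09 ± 0.121 with all 9). Ctss was lower with LPS+MIC-1 than with control as well (-1.10 ± 0.156 without LPS library 2), where 2 pathway genes rose and 4 fell (7.55% and 8.2% of all tested genes).

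Among 16 listed regulators of class II expression, 12 were tested in macrophages, and without LPS library 2, 2 rose with LPS (Irf8, 1.73 ± 0.156, and Jak2, 1.29 ± 0.179) and 2 fell (the interferon gamma receptor Ifngr1, -1.51 ± 0.138, and Irf1, -1.44 ± 0.209), shares near the 16.3% and 17.9% of all tested genes. Under LPS+MIC-1 relative to LPS, 0 rose and 2 fell (Irf8, -1.28 ± 0.156, and Ifngr2, -1.02 ± 0.0885), where 11.3% of all tested genes rose and 12% fell. Against control 1 rose (Jak2) and 1 fell (Irf1), near the 7.55% and 8.2% of all tested genes. Ifng, which drives Ciita in most cells, did not pass the filter and was at most 0.0568 FPKM. Of 21 other co-stimulation ligands 12 were tested, and 4 rose and 2 fell with LPS without library 2 (16.3% and 17.9% of all tested genes). Slamf7 was among the 4 called higher, with 4632428N05Rik, the gene of the B7 family inhibitor VISTA (2.12 ± 0.217), and Tnfsf9, the 4-1BB ligand (1.78 ± 0.0587). Icam1 (-1.88 ± 0.0557) and Cd276 (-1.08 ± 0.169) fell. In LPS+MIC-1 relative to LPS, 2 were called higher (Icosl, and Icam1, 1.13 ± 0.0557) and 3 lower (Slamf7, -2.56 ± 0.405, Tnfsf9, -1.60 ± 0.0587, and Tnfrsf14), where 11.3% of all tested genes rose and 12% fell. With all 9 libraries Pvr alone was called, higher (1.01 ± 0.137, limma, adjusted p = 0.00318). Slamf7 in control, Icosl in LPS libraries 1 and 3 and Tnfrsf14 in LPS+MIC-1 had means below 1 FPKM, and passed the filter through other libraries. No fold change is given for comparisons with those groups. Slamf7 was at 0 to 0.495 FPKM in control and at 24.7 and 22.6 in LPS libraries 1 and 3. Against control 3 of these ligands rose (Slamf7, Pvr and 4632428N05Rik) and 1 fell (Cd276) with LPS+MIC-1. Of 9 genes of Cd40 signalling 8 were tested, where Traf5 rose with LPS (1.30 ± 0.111) and with LPS+MIC-1 against control (1.02 ± 0.0997), and Birc3 was higher with LPS+MIC-1 than with LPS (1.46 ± 0.166), all without LPS library 2. With all 9 libraries 0 genes of the regulators and of Cd40 signalling were called in any comparison, of 12 and 8 tested.

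In liver the picture was different. The class II chains and Cd74 were readily measured, and Cd274 was present at a few FPKM. Cd40, Cd80 and Cd86 were low, with at most 28, 16 and 50.2 estimated reads, and Cd80 was at or near the limit of detection in most livers. In these bulk samples, fewer cells of a type and less RNA per cell cannot be told apart. An exact 0 in the liver table can be a failed estimate, since the common genes Ywhaz and Gusb are listed at 0 in 3 and 2 of 9 libraries.

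H2-Aa, the I-A alpha chain, was at 18.4, 24.9 and 34.5 FPKM in the control livers, at 16.7, 15.7 and 22.0 after LPS, and at 9.95, 16.6 and 10.5 after LPS+MIC-1 (25.9 ± 8.10, 18.1 ± 3.39 and 12.4 ± 3.71, mean ± SD, n = 3). All LPS+MIC-1 livers lay below all controls, and the LPS livers overlapped both groups. H2-Eb1, the I-E beta chain, was at 9.09, 8.45 and 10.9 FPKM in control, at 5.26, 5.15 and 7.06 after LPS, and at 3.21, 4.86 and 3.72 after LPS+MIC-1. Its 3 groups did not overlap, with control the highest and LPS+MIC-1 the lowest, and 34.3 to 82.5 estimated reads lay behind each value. H2-Ab1, the I-A beta chain, was at 16.1, 34.2 and 31.2 FPKM in control, at 20.5, 25.6 and 26.6 after LPS, and at 12.2, 23.2 and 13.3 after LPS+MIC-1, with overlap between each pair of groups.

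Cd74 had its highest values after LPS. It was at 33.7, 30.1 and 30.4 FPKM in control, at 50.1, 30.5 and 54.1 after LPS, and at 28.0, 35.7 and 30.6 after LPS+MIC-1, so LPS livers 1 and 3 were the highest and LPS liver 2 lay among the controls. Cd274 (PD-L1) was at 5.17, 7.28 and 7.52 FPKM in control, at 5.72, 5.42 and 4.79 after LPS, and at 2.89, 3.85 and 3.13 after LPS+MIC-1. All LPS+MIC-1 livers lay below every other liver for Cd274.

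The co-stimulatory genes did not reach a mean of 1 FPKM over the 9 livers. Cd40 was at 0.481, 0 and 0.476 FPKM in control, at 1.58, 0.512 and 1.86 after LPS, and at 0.284, 0.866 and 0 after LPS+MIC-1. Cd80 was listed at 0 in all control livers, was at 0.388, 0.112 and 0.659 FPKM after LPS (9.99, 1.99 and 16 estimated reads), and at 0.0897, 0.0535 and 0.0947 after LPS+MIC-1 (at most 1.99 reads). Its LPS livers lay above all others, though LPS liver 2 was at fewer than 3 reads. Cd86 was at 0.412, 0.442 and 0.792 FPKM in control, at 1.25, 0.836 and 1.23 after LPS, and at 0.727, 0.729 and 0.951 after LPS+MIC-1. For each of Cd40, Cd80 and Cd86 every LPS liver lay above every control liver, and the exact two-sided permutation test gave the smallest p it allows, 0.1. For Cd40 this rested on 5.65 estimated reads in LPS liver 2 against 4.67 in control 1. For Cd80, 3 reads would give 0.192 to 0.343 FPKM in the control livers. Among tested genes, which do not include these 3, 24.2% were higher without overlap in this comparison. Between LPS+MIC-1 and LPS livers the exact permutation p was 0.2 for Cd40, 0.1 for Cd80 and 0.2 for Cd86. Ciita was listed at 0 in 8 of 9 livers and was at 0.392 FPKM (16.4 reads) in LPS liver 3. Cd83 was listed at 0 in all 9 livers, where 3 reads would give 0.0895 to 0.264 FPKM.

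**Figure D4:**
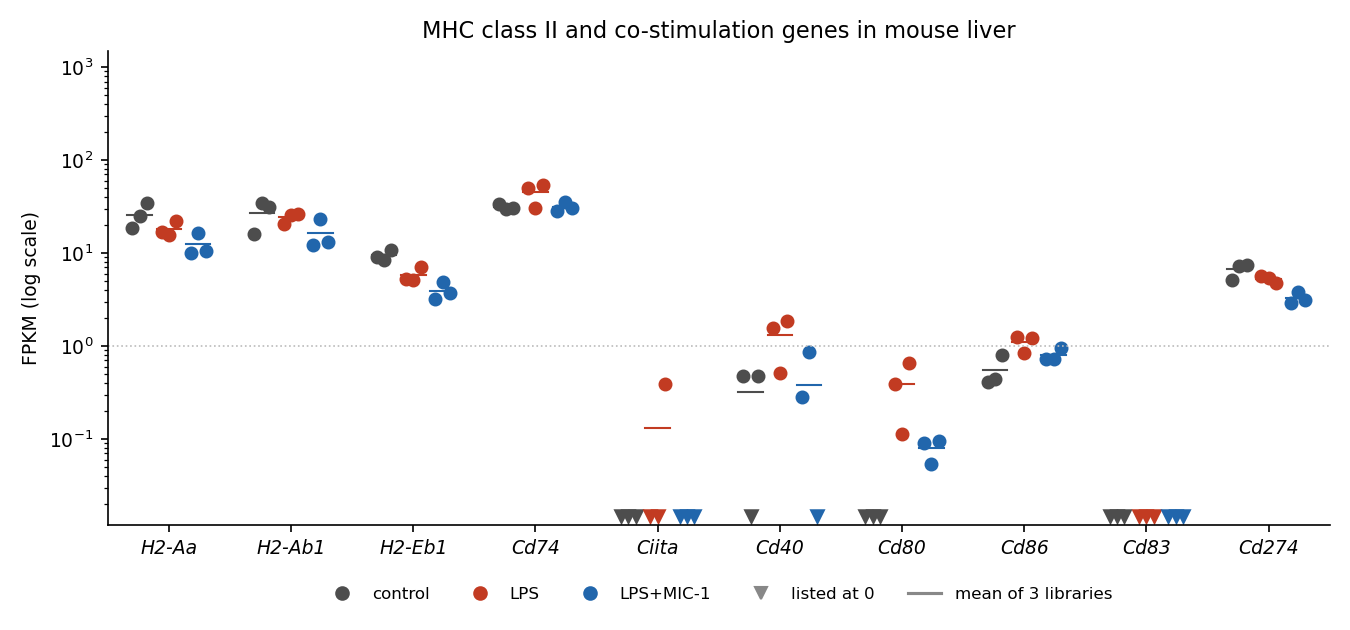
FPKM (log axis) of the 10 genes in mouse liver, 1 point per library (control, LPS and LPS+MIC-1, n = 3 each), with bars at group means, triangles at the bottom for values listed at 0 and a dotted line at 1 FPKM. H2-Eb1 falls from 8.45 to 10.9 in control to 3.21 to 4.86 in LPS+MIC-1, and Cd80 is listed at 0 in all controls.

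H2-Aa, H2-Ab1, H2-Eb1, Cd74 and Cd274 passed the filter in liver, each with a mean above 1 FPKM in every group, and were tested with limma among 10147 genes, with a call at an adjusted p below 0.05 and an absolute Log2FC above 1. For LPS against control, 0 of these 5 genes were called, where 11.2% of tested genes were called lower and 13.4% higher, and H2-Eb1 alone had an unadjusted p below 0.05 (4892 of all genes did). Log2FC was -0.66 ± 0.207 for H2-Eb1 (adjusted p = 0.0383), -0.47 ± 0.287 for H2-Aa, -0.29 ± 0.196 for Cd274, -0.10 ± 0.336 for H2-Ab1 and 0.47 ± 0.233 for Cd74. The median of the 5 was -0.29 and that of all genes was 0.15. Groups did not overlap for H2-Eb1 (lower), as for 20.8% of tested genes in that direction. Without LPS liver 2, Cd74 was at 0.72 ± 0.155 (adjusted p = 0.00831), below the fold limit, and the count of calls was still 0, where 34.6% of tested genes were called.

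In LPS+MIC-1 livers relative to control, H2-Eb1 fell by 1.18 on the log2 scale (SE 0.207, adjusted p = 0.00496) and H2-Aa fell by 1.03 (SE 0.287, adjusted p = 0.0242), 2 of 5 genes, where 11.5% of tested genes were called lower. Cd274 had an adjusted p of 0.00983 and a Log2FC of -0.91 ± 0.196, short of the fold limit. H2-Ab1 was at -0.71 ± 0.336 (adjusted p = 0.126) and Cd74 at -0.00 ± 0.233. The 3 genes H2-Aa, H2-Eb1 and Cd274 were lower in every LPS+MIC-1 liver than in every control liver, as were 24.1% of tested genes. H2-Eb1 was called with each library left out in turn. H2-Aa was not called without control 2, control 3, LPS+MIC-1 liver 1 or LPS+MIC-1 liver 3, which left 1 call each, and without control 1 there were 4 calls, with H2-Ab1 and Cd274 added. Rescaled to the same sum, which moved the median of all genes from 0.15 to -0.43, H2-Aa, H2-Eb1, H2-Ab1 and Cd274 were called (-1.67, -1.78, -1.35 and -1.50) and Cd74 was at -0.65. LPS+MIC-1 liver 2 was the highest of its group for all 5 genes, and without it H2-Aa, H2-Eb1 and Cd274 were called (-1.25, -1.33 and -1.01). The LPS+MIC-1 group is then livers 1 and 3 alone, which differed by 2.11 in units of counting variance. Small p-values there may reflect technical spread, as for the macrophage LPS group without library 2.

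In the comparison of LPS+MIC-1 with LPS, 0 of the 5 genes and 0% of all 10147 were called in liver, where 364 genes had an unadjusted p below 0.05. All 5 genes were lower in mean, with Log2FC between -0.47 (Cd74) and -0.62 (Cd274) and SE between 0.196 and 0.336, a median of -0.56 against -0.01 for all genes. Cd274 (unadjusted p = 0.0123) and H2-Eb1 (unadjusted p = 0.0354) did not overlap between the groups, as did 4.64% of tested genes in that direction, and their adjusted p from limma was 0.997. The exact two-sided permutation test gave p = 0.1 for both, the smallest it allows. Without LPS liver 2, Cd74 was at -0.73 ± 0.155 (adjusted p = 0.102) and 0 of the 5 genes were called, with 0.148% of tested genes called lower.

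Within a liver, the ratio of Cd74 to H2-Eb1 was 3.70, 3.57 and 2.79 in control, 9.53, 5.91 and 7.66 after LPS, and 8.74, 7.35 and 8.22 after LPS+MIC-1. The ratio of Cd74 to H2-Aa likewise was 0.881 to 1.83 in control and 1.94 to 3.00 after LPS. Both were higher in every LPS liver than in every control, 2 of the 10 ratios among these 5 genes, but 49.5% of tested genes were higher relative to H2-Eb1 in that way and 33.7% relative to H2-Aa. Between LPS+MIC-1 and LPS, 0 of the 10 ratios were without overlap. Over the 9 livers, log2 values of H2-Aa correlated with those of H2-Eb1 at r = 0.929, of H2-Ab1 at 0.863 and of Cd274 at 0.892, while Cd74 correlated with these 4 genes at 0.108 to 0.186. The genes outside the 10 whose pattern was most like the mean of H2-Aa, H2-Ab1, H2-Eb1 and Cd74 were Pde7a, Ciapin1, 2010003K15Rik, 2310030G06Rik and Pyroxd1 (r = 0.923 to 0.962 over 9 libraries). Those most like Cd274 were Fastk, H2-Gs10, Net1, Hspa1l and Utp14a (r = 0.956 to 0.98).

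Markers of other antigen-presenting and immune cells differed between the liver groups beside the class II chains. The 8 B cell markers summed to 4.65 to 5.22 FPKM in control, 0.422 to 1.75 after LPS and 0.545 to 2.39 after LPS+MIC-1, and Cd79a was at 2.42 to 3.57 FPKM in control, 0.226 to 1.02 after LPS and 0.328 to 0.878 after LPS+MIC-1. The defining marker Cd79b was listed at 0 in 8 of 9 livers and Fcer2a in every liver. The 8 dendritic cell markers summed to 4.72 to 5.97 FPKM in control, 1.44 to 2.90 after LPS and 1.17 to 2.49 after LPS+MIC-1, and Xcr1 was at 3.43 to 4.16 FPKM in control, 0.538 to 1.81 after LPS and 0.272 to 1.46 after LPS+MIC-1. Of each of these 2 lists that gene alone passed the filter, through the controls where it was high, so no test is given for it. Clec9a was listed at 0 in 8 of 9 livers and Siglech in 8 of 9. The dendritic cell list split by gene, and most of the fall in its sum lay in Xcr1. Zbtb46 was at 0.122 to 0.457 FPKM in control, 0.391 to 0.551 after LPS and 0.315 to 0.58 after LPS+MIC-1. Itgax was at 0.251 to 0.398, 0.26 to 0.445 and 0.214 to 0.426 in the same groups. Cd209a was at 0.0747 to 0.396 in control and listed at 0 in all treated livers. T cell markers summed to 15.3 to 21.3 FPKM in control, 3.69 to 7.98 after LPS and 4.48 to 5.90 after LPS+MIC-1, and split by gene. Cd3d, at 9.16 to 13.1 FPKM in control, fell with both, 1 of 2 tested, where 11.2% and 11.5% of all tested genes were called lower. Cd3g, the other tested gene, overlapped (0.696 to 2.37 FPKM in control, 0.21 to 1.6 after LPS and 0.881 to 1.35 after LPS+MIC-1). Cd4 was lower (1.2 to 1.37, 0.101 to 0.177 and 0.236 to 0.339) and Cd3e was not (0.0763 to 0.395, 0.147 to 0.666 and 0.267 to 0.317).

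Kupffer cell and macrophage markers summed to 80.7 to 88.5 FPKM in control, 110 to 143 after LPS and 141 to 215 after LPS+MIC-1, and split by gene. Marco, C1qb and, after LPS+MIC-1, C1qa rose, and Clec4f and Vsig4, which mark resident Kupffer cells, fell (-2.11 ± 0.38 and -1.47 ± 0.328 with LPS). Timd4, Cd5l and Csf1r of the same list were not called against control. Timd4 was at 1.95 to 3.39 FPKM in control and 1.92 to 2.10 after LPS, and Cd5l at 5.08 to 10.1 and 4.16 to 7.36. Monocyte and neutrophil markers summed to 35.7 to 52.2 FPKM in control, 298 to 366 after LPS and 178 to 406 after LPS+MIC-1, and also split by gene. With LPS 3 of 5 tested were called higher, among them S100a8 (5.53 ± 0.495), and 1 lower. Cxcr2 went down, from 26.5 to 42.6 FPKM in control to 3.89 to 10.1 after LPS and 3.59 to 7.79 after LPS+MIC-1. S100a9 and Elane had control means below 1 FPKM and passed the filter through the treated livers, as did the endothelial marker Pecam1, listed at 0 in 2 of 3 controls. Of 6 endothelial markers 2 rose and 2 fell with LPS, and 1 rose with LPS+MIC-1, and 1 of 6 hepatocyte markers (Cps1) fell with LPS and 0 with LPS+MIC-1. Of the RAW264.7 markers 2 of 5 tested rose in liver with LPS (Cd14 and Itgam). Beside these counts, 13.4% of all tested genes were called higher and 11.2% lower with LPS. With LPS+MIC-1 against control the shares were 13.8% and 11.5%. None of the marker genes was called for LPS+MIC-1 against LPS in liver, where 0% of all tested genes were. The part of these shifts in the values of H2-Aa, H2-Eb1 and Cd274 was not tested. In the macrophage cultures the B cell markers summed to at most 0.328 FPKM and the dendritic cell markers to at most 2.33 FPKM, and S100a8 rose with LPS+MIC-1 against control (8.24 ± 0.743 with all 9 libraries).

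Of the class II pathway in liver 12 genes were tested. With LPS 4 endosomal proteases rose and 0 of the 12 genes fell, where 13.4% of all tested genes were called higher and 11.2% lower, with a median Log2FC of 0.38, led by Ctsl (2.43 ± 0.484), Lgmn (1.96 ± 0.359) and Ctss (1.95 ± 0.335), while the protease Ctsb did not pass (0.68 ± 0.28). The same count held for LPS+MIC-1 against control, where 13.8% of all tested genes were called higher, led by Ctsl (2.44 ± 0.484), Lgmn (1.85 ± 0.359) and Ctss (1.80 ± 0.335). Ctss was at 7.29, 13.4 and 4.71 FPKM in control livers, at 28.7, 27.1 and 39.7 after LPS and at 28.3, 25.6 and 30.9 after LPS+MIC-1. Of the class II regulators 12 were tested. With LPS 2 were called higher (Il10, and Sfpi1, the gene of PU.1, 1.55 ± 0.21) and 1 lower (Irf2, -1.06 ± 0.313), shares near those of all tested genes. With LPS+MIC-1 against control Il10 alone was called. Of the other co-stimulation ligands 7 were tested. With LPS 3 were called higher (Icam1, 2.34 ± 0.236, Cd48 and 4632428N05Rik), and 2 with LPS+MIC-1 against control (Icam1, 1.90 ± 0.236, and 4632428N05Rik). Il10, 4632428N05Rik and Cd48 had means below 1 FPKM in control and passed the filter through the treated groups. They could enter these counts only as higher, and no fold change is given for them. Il10 was at 0 to 0.26 FPKM in control, 1.36 to 1.83 after LPS and 1.44 to 2.47 after LPS+MIC-1. Of 7 tested genes of Cd40 signalling 0 were called with LPS and 1 with LPS+MIC-1 against control, Relb, which is listed at 0 in all control livers and was at 2.09 to 5.17 FPKM with LPS+MIC-1. Without LPS liver 2, 4 of these 7 genes and 4 of the 12 regulators were called higher with LPS (19% of all tested genes), and 2 and 2 with LPS+MIC-1 (15.3%). Among those 4 genes of Cd40 signalling, Relb, Traf3 and Map3k14 had control means below 1 FPKM, and Traf3 is listed at 0 in 2 of 3 controls. Cd28, the T cell receptor of Cd80 and Cd86, was the 1 counterpart to pass the filter, in each table through the groups where it was high, so no test is given for it. It was at 0.0413 to 0.38 FPKM in control livers, 1.77 to 5.36 after LPS and 3.86 to 4.97 after LPS+MIC-1, and in macrophages at 0.7 to 0.899 in control, 0.277 to 0.983 in LPS and 2.66 to 2.86 in LPS+MIC-1. For LPS+MIC-1 against LPS, 0 genes of these lists were called in liver, where 0% of all tested genes were.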

How the data were processed

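RNA-seq of 18 libraries was used, 9 of RAW264.7 macrophages and 9 of liver. Per the study's methods and the submitters' processing notes, the authors pseudoaligned reads to RefSeq transcripts of mm9 with kallisto (0.45.0), summed them per gene, and deposited FPKM from DESeq2 (1.20.0), scaled by size factors. They also deposited comparison tables of fold changes and p-values, which were not used. All columns matched a group by name, and 0 were left over.

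Each table was fitted alone. limma was run on log2(FPKM + 0.5) of all genes whose mean over a table exceeded 1 FPKM (limma 3.58.1, R 4.3.3; eBayes with trend), the 3 groups in 1 fit. Exact permutation tests were two-sided. Depth, reads behind a value and the FPKM of 3 reads were estimated from the spacing of low values for transcripts of 1000 to 6000 bases, and cover counting error only. The fit was tested on simulated data. The 10 genes and all lists were chosen with earlier results of these data known. All 10 genes are named, and from each list at most the 3 called genes with the largest fold change per direction and comparison, with 5 genes alike per profile. Marker genes named as defining, at 0 or without a call, and the ratio pairs were chosen after their values were seen. Alternatives covered pseudocounts of 0.1 and 1, filters, scalings, libraries in the fit, library weights and thresholds, and 2 scalings of 8 macrophage libraries were added after seeing the data. Python 3.11.15, numpy 2.4.6, pandas 2.3.3, scipy 1.17.1 and matplotlib 3.10.9 were used.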

Additional observations from a re-analysis of the deposited data

Results flagged for a closer look

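Cd274 lay on opposite sides of the control mean in cultured macrophages and in liver. For LPS against control, all 3 macrophage libraries lay above the control mean (mean difference 3.64 on the log2(FPKM + 0.5) scale) and all 3 livers below it (-0.29), and for LPS+MIC-1 against control the mean differences were 3.37 and -0.91. Macrophage LPS library 2 (5.51 FPKM) still lay below control library 2 (6.37), and the LPS livers (4.79 to 5.72) overlapped the control livers (5.17 to 7.52). H2-Ab1 for LPS+MIC-1 against control was 0.43 in macrophages and -0.71 in liver, and H2-Eb1 for LPS against control was 0.67 and -0.66, with the macrophage values resting on a few reads. For LPS+MIC-1 against LPS, Cd80 was 0.47 in macrophages and -0.57 in liver and Cd86 was 0.72 and -0.29, where the macrophage LPS mean includes library 2, and without it Cd80 and Cd86 were at -0.68 and -0.23 as deposited and at 0.11 and 0.55 rescaled to the same sum. The tables were normalized separately, and none of these differences between macrophages and liver was tested.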

How the results depend on the processing

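No paired analysis was possible because the columns of both tables carry the treatment and no replicate number. Over the 3 macrophage comparisons in the order LPS against control, LPS+MIC-1 against LPS and LPS+MIC-1 against control, calls among the 10 genes went from 0, 0 and 0 to 6, 2 and 6 with library weights. They went to 6, 0 and 5 with an unadjusted p, LPS+MIC-1 against control alone went to 5 with only the compared groups fitted, and to 1 with FPKM rescaled to the same sum. With LPS library 2 left out they were 5, 0 and 4 under the same sum, and 5, 1 and 5 under quantile normalization, where the last 5 held Cd40 in place of Cd74. Leaving out 1 library gave 0 to 6, 0 to 2 and 0 to 5, where the highest came without LPS library 2. In liver, LPS against control went from 0 to 1 under the same sum and without a minimum fold, and LPS+MIC-1 against control from 2 to 4 under the same sum and with library weights and to between 1 and 4 with 1 library left out.

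For LPS+MIC-1 against LPS in macrophages, Log2FC turned sign for Cd74 (from -0.31 to 0.19) and Cd274 (from -0.27 to 0.23) under the same sum, and to 0.13 and 0.072 under quantile normalization. Library weights turned Cd80 (from 0.47 to -0.49) and Cd83 (from 0.46 to -0.13). With 8 libraries the same sum put Cd74, Cd80, Cd83 and Cd86 at 0.062, 0.11, 0.44 and 0.55, and quantile normalization put Cd80, Cd86 and Cd83 at -0.36, -0.17 and -0.34. With 1 library left out, Cd274 ranged from -1.85 to 0.53, Cd80 from -0.68 to 1.05, Cd86 from -0.23 to 1.24 and Cd83 from -0.33 to 0.89. In liver, H2-Ab1 ranged from -0.43 to 0.10 for LPS against control and Cd74 from -0.10 to 0.076 for LPS+MIC-1 against control. The cause was not tested, except that rescaling to the same sum lowers every value of LPS libraries 1 and 3, whose sums were the highest. Of the other values of single genes under alternatives that keep all libraries or drop library 2 for scaling, 331 kept direction and side of the threshold and 58 newly passed it. Control livers 2 and 3, at 3.61 and 3.54 M estimated reads, limit the values of Cd40, Cd80, Ciita and Cd83.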
